A study of Homo sapiens with 8 samples.

Results

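Transcripts of the classical cadherins CDH1, CDH2 and CDH3, of the epithelial adhesion gene EPCAM and of the transcription factors ZEB1, ZEB2, SNAI1, SNAI2, TWIST1 and TWIST2 were compared between TRAIL-resistant and TRAIL-sensitive H460 cells. The members were taken by gene symbol: every probe set that the platform annotation assigns to 1 of these 10 genes was included, which gave 20 probe sets of 54613 and 10 genes of the 19775 with a probe set of their own symbol. H460 is a human non-small-cell lung cancer line, and TRAIL is a death ligand of the tumour necrosis factor family. The resistant group, H460R, holds 4 arrays of H460 cells that acquired resistance during 6 months of daily exposure to TRAIL at doses below the toxic range. The sensitive group, H460S, holds 4 arrays of control H460 cells. All cells were grown in RPMI with serum. The labels give no TRAIL treatment for H460S, no time since the last dose of H460R and no statement on clones or separate cultures. Resistance, long exposure to the ligand and time in culture therefore cannot be told apart, and p-values measure only the spread between arrays, which may be technical.

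Classical cadherins are calcium-dependent adhesion molecules that join neighbouring cells and bind catenins inside the cell. In epithelial-mesenchymal transition (EMT), cells commonly lose E-cadherin and gain N-cadherin. The zinc finger proteins of the SNAI and ZEB families and the basic helix-loop-helix proteins of the TWIST family are known to take part in this switch. SNAI and ZEB proteins repress the E-cadherin gene CDH1 through E-box sequences, which have the letters CANNTG, and favour forms such as CACCTG and its reverse complement CAGGTG.

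Array values were linear intensity signals, and levels are given below as signals or as log2(signal + 1). The median signal per array was 32.6 to 34.4 in H460R and 33.3 to 37.4 in H460S, and averaged over arrays the middle of all probe sets lay at 5.01 on the log2 scale (31.2 in signal), called the median level below. Correlations of log2 values over all probe sets were 0.936 to 0.957 between arrays of a group and 0.917 to 0.931 between groups, where probe sets are not independent replicates. The 3' minus 5' log2 difference of the ACTB control probe sets, a measure of RNA integrity and labelling, was 0.10 to 0.13 in H460R and 0.23 in all H460S arrays (exact two-sided permutation p = 0.0286, the smallest that 4 against 4 arrays allow). That of GAPDH was -0.22 to -0.06 in H460R and -0.15 to -0.13 in H460S (exact permutation p = 0.686). The part of the ACTB difference in the results below was not tested. The epithelial keratins KRT8 and KRT18 lay at log2 levels of 11.36 ± 0.11 and 13.12 ± 0.15 in H460R and of 11.41 ± 0.11 and 13.18 ± 0.08 in H460S (SD, n = 4 each). Of 4 epithelial marker genes all lay above the median level, as against 3 of 8 for fibroblasts, 2 of 5 for leukocytes and 1 of 5 for endothelial cells. By the gene-level test described further on, 2 epithelial and 2 fibroblast markers fell, KRT19 by 1.24 (SE 0.10), KRT7 by 0.37 (SE 0.10), LUM by 3.27 (SE 0.54) and PDGFRB by 1.12 (SE 0.26), and their part in the results was not tested. With their probe sets averaged, KRT7 (-0.37, adjusted p = 0.456) and LUM (-1.26, adjusted p = 0.0581) did not pass. In bulk RNA, fewer cells that carry a transcript and less of it per cell cannot be told apart.

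The N-cadherin gene CDH2 was the member that differed most. It lay somewhat above the middle of the signal range in H460R and near the bottom of it in H460S. CDH1, CDH3 and EPCAM were dim in both groups. Among the transcription factors, SNAI1 was higher in H460R, ZEB2 and TWIST2 were lower, ZEB1 was slightly higher, and SNAI2 and TWIST1 did not pass the test. Changes are given as H460R minus H460S with the standard error of limma, and passed means an adjusted p below 0.05 by limma with Benjamini-Hochberg adjustment over all 54613 probe sets. Of the 20 member probe sets, 4 rose and 3 fell (35% passed). Over all probe sets 19.5% passed, 9.13% higher and 10.4% lower in H460R. All arrays of H460R lay above or below all arrays of H460S for 8 member probe sets (40%), 4 in each direction, and for 26.4% of all probe sets. The median change was -0.24 for the member probe sets and -0.04 for all. In level, 10 of the 20 lay below the median probe set on average, and 6 did so on every array.

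**Figure D1:**
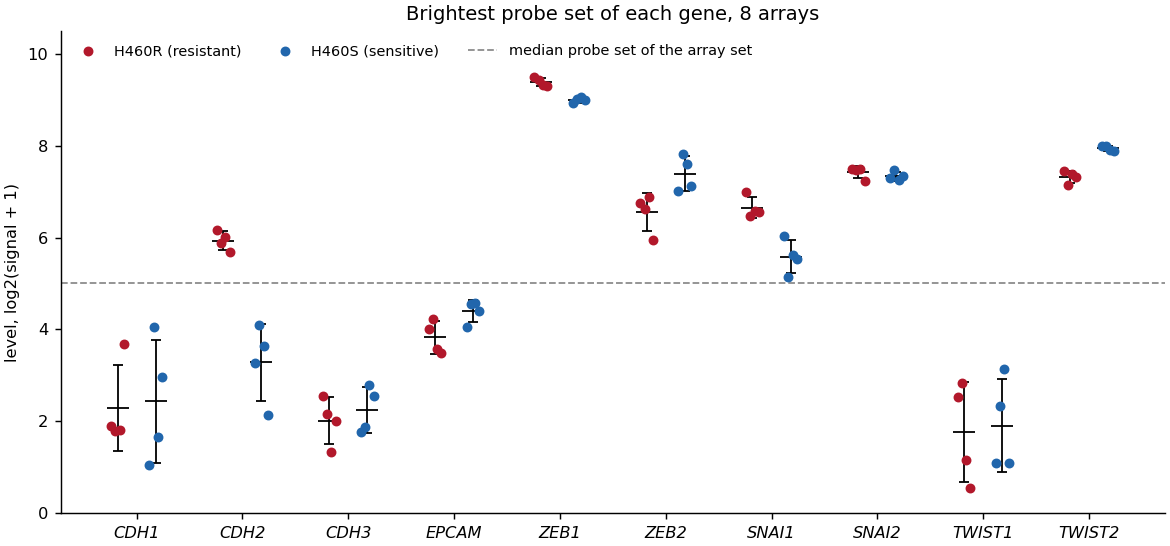
Log2(signal + 1) of the brightest probe set of each of the 10 genes, with 4 H460R arrays (red) left of 4 H460S arrays (blue); black marks are means with SD bars, and the dashed line is the median probe set at 5.01. CDH2 lies above the line in H460R and below it in H460S, whereas CDH1, CDH3, EPCAM and TWIST1 lie below it in both groups.

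CDH2 encodes N-cadherin, the classical cadherin of neural and mesenchymal cells. Its probe set 203440_at had signals of 88.2, 133, 109 and 69.6 in H460R, against 2.73, 2.05, 3.21 and 2.64 in H460S. Every resistant array was far above every sensitive array. On the log2 scale the level was 6.62 ± 0.40 in H460R and 1.86 ± 0.19 in H460S (SD, n = 4 each), a rise of 4.76 ± 0.21 or 27.1-fold (adjusted p = 2.90e-05). The second CDH2 probe set, 203441_s_at, whose suffix marks probes that may match several transcripts, had signals of 70.9, 57.7, 63.7 and 50.5 in H460R, against 8.64, 16.1, 11.4 and 3.4 in H460S. It rose by 2.65 ± 0.40 or 6.29-fold (adjusted p = 0.00354), again with no overlap between the groups. Both probe sets passed without any 1 array, with changes of 4.61 to 4.92 and of 2.27 to 2.92. The H460S signals were below those of most probe sets on the array, at percentiles 7.38 to 12.6 and 13.2 to 33.01, where differences on the log2 scale depend on the pseudocount. With a pseudocount of 16 in place of 1 the changes were 2.61 and 1.58, and both passed.

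Promoter sequences, from 250 bases before to 50 after the annotated start, came from the RefSeq table of build GRCh38.p14. From it 11 windows of 4 of the 10 members (CDH2, ZEB1, ZEB2 and TWIST2) were read. The windows of CDH2 and ZEB2 and 1 window of ZEB1, all genes that passed, are shown. Capitals mark every CANNTG. The background names E-boxes of CDH1, whose window is not shown, and a role of the E-boxes shown here was not tested. Entries for CDH1, CDH3, EPCAM, SNAI1, SNAI2 and TWIST1 are not shown. Of all 35116 windows of 300 bases in that table, 68.7% hold a CANNTG and 20.6% hold CACCTG or CAGGTG, which are counted here on both strands and are themselves forms of CANNTG. The CDH2 window at chr18:28177081-28177380, minus strand, holds no CANNTG and has a GC content of 67.0%. The other CDH2 window, at chr18:28036592-28036891, minus strand, holds 1, with the letters CAGATG.
CDH2: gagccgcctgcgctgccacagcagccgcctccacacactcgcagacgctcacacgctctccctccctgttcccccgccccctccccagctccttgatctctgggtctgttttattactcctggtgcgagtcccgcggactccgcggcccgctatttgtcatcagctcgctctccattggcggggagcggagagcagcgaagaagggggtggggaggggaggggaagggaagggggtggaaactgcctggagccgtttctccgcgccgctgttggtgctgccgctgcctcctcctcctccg
CDH2, other start: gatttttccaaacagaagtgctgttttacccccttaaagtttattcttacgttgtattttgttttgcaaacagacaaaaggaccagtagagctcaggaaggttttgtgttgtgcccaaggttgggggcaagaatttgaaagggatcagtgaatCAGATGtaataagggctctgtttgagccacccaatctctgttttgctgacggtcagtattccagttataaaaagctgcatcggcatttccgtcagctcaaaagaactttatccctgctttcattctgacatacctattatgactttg

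E-cadherin, the product of CDH1, is the main adhesion molecule of epithelial cells. Its probe set 201130_s_at had signals of 2.69, 2.43, 2.52 and 11.9 in H460R, against 1.07, 15.6, 2.16 and 6.83 in H460S, and the groups overlapped. The level was 2.29 ± 0.93 in H460R and 2.43 ± 1.34 in H460S (SD, n = 4 each), a change of -0.14 ± 0.74 (95% interval -1.88 to 1.60, adjusted p = 0.929). The other probe set, 201131_s_at, had signals of 1.57, 4.89, 0.644 and 0.392 in H460R and 7.03, 2.71, 3.99 and 1.14 in H460S, also overlapping. It changed by -0.80 ± 0.56 (95% interval -2.11 to 0.51, adjusted p = 0.393). The values of both probe sets on all 8 arrays stayed below the median level. A change of CDH1 in either direction was not detectable at these signals, since the intervals span more than 1 log2 unit.

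CDH3, which encodes P-cadherin and lies beside CDH1 in the genome, was as dim. Its probe set 203256_at had signals of 4.86, 3.46, 1.52 and 3.01 in H460R, against 2.39, 2.67, 5.92 and 4.81 in H460S. The change was -0.23 ± 0.33 (95% interval -1.01 to 0.55, adjusted p = 0.705). EPCAM encodes a homotypic adhesion molecule of epithelial cells. Its probe set 201839_s_at had signals of 15.1, 17.8, 10.8 and 10.3 in H460R, against 15.7, 22.6, 22.9 and 20.1 in H460S. Only the highest resistant array reached the lowest sensitive one. The level was 3.83 ± 0.35 in H460R and 4.40 ± 0.24 in H460S (SD, n = 4 each), a change of -0.58 ± 0.21 that did not pass (adjusted p = 0.102).

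The difference between the changes of 2 members was tested for the 6 pairs of CDH1, CDH2, CDH3 and EPCAM with the brightest probe set of each, the one with the highest mean over all 8 arrays. The change of CDH2 exceeded that of EPCAM by 3.23 log2 units and that of CDH3 by 2.88 (exact two-sided permutation p = 0.0286 each, adjusted p = 0.0857 over the 6 pairs). Both reached the smallest p that the design allows, and neither passed after adjustment. With only pairs of CDH2 at that smallest p, the adjusted p over 6 pairs could not fall below 0.05. The missed threshold is therefore not read as a result about CDH2. With a pseudocount of 16 these differences were 1.89 and 1.64, and that of CDH1 minus CDH2 was -1.67 in place of -2.79 (adjusted p = 0.0571 each, from exact permutation). The change of CDH1 minus that of CDH2 was -2.79 (exact permutation p = 0.0571, adjusted p = 0.114). For the pairs among CDH1, CDH3 and EPCAM the differences were 0.09 for CDH1 minus CDH3, 0.43 for CDH1 minus EPCAM and 0.34 for CDH3 minus EPCAM (exact permutation p of 0.886, 0.600 and 0.286, adjusted p of 0.886, 0.720 and 0.429).

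**Figure D2:**
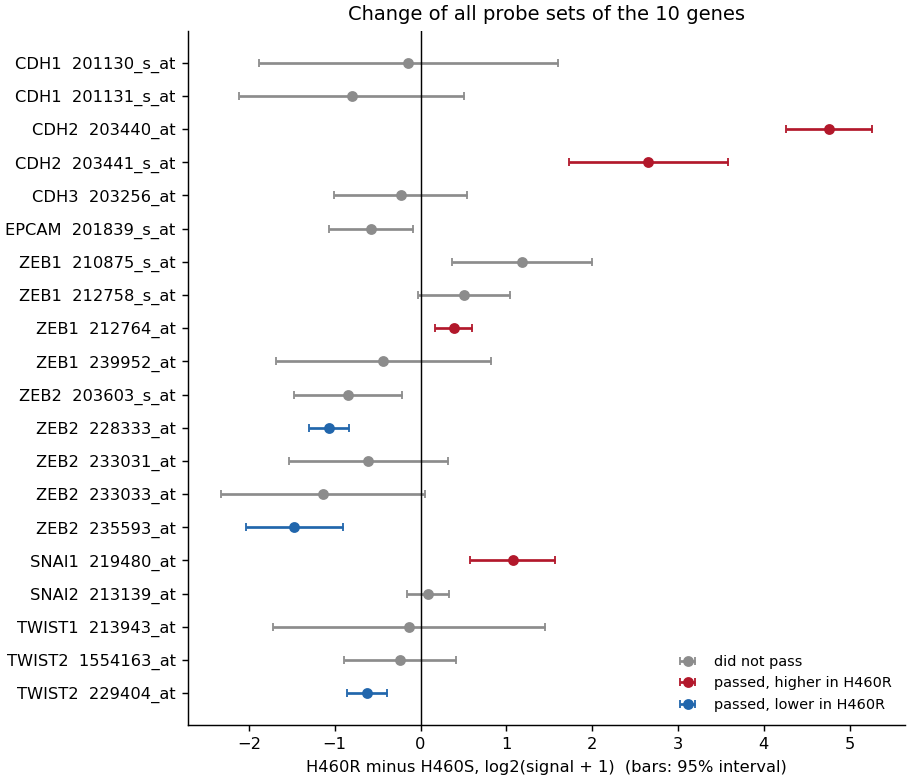
Change of each of the 20 probe sets, H460R minus H460S on the log2(signal + 1) scale, with 95% intervals from limma (n = 4 per group); red and blue points passed, grey points did not. The 2 CDH2 probe sets lie at 4.76 and 2.65, and all 5 ZEB2 probe sets lie below 0.

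SNAI1, which encodes the zinc finger repressor Snail, had signals of 127, 87.8, 95 and 93.4 in H460R, against 64.5, 34.4, 47.9 and 45.5 in H460S (probe set 219480_at). Each resistant array was above each sensitive array. The level was 6.66 ± 0.24 in H460R and 5.58 ± 0.36 in H460S (SD, n = 4 each), a rise of 1.07 ± 0.21 or 2.10-fold (adjusted p = 0.0113). It passed without any 1 array, with changes of 0.93 to 1.22 and adjusted p-values up to 0.0337. SNAI2, which encodes the related factor Slug, had signals of 180, 176, 180 and 150 in H460R, against 156, 176, 151 and 161 in H460S (probe set 213139_at). The groups overlapped, and the change was 0.09 ± 0.11 (95% interval -0.16 to 0.33, adjusted p = 0.637). Both SNAI genes lay above the median level on average. The 95% interval of SNAI1 was 0.58 to 1.56, and the difference between the 2 changes was not tested.

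ZEB1 and ZEB2 encode zinc finger and homeobox proteins that repress CDH1, and the 2 genes moved in opposite directions. The brightest ZEB1 probe set, 212764_at, had signals of 721, 690, 645 and 631 in H460R, against 486, 522, 534 and 510 in H460S. The groups did not overlap, and the rise was small, 0.39 ± 0.09 or 1.31-fold (adjusted p = 0.0233). It did not pass without H460R array 1, 2 or 3 or H460S array 1, 2 or 4, with changes of 0.35 to 0.41 and adjusted p-values of 0.0524 to 0.0708. Another ZEB1 probe set, 210875_s_at, had signals of 185, 124, 158 and 74.4 in H460R, against 86.2, 59.7, 37.6 and 50.1 in H460S, and changed by 1.18 ± 0.35 (adjusted p = 0.0535). It passed without H460R array 4 (1.44, adjusted p = 0.0214) and without H460S array 1 (1.39, adjusted p = 0.0395). It also passed under 6 of the 7 other settings, with adjusted p-values from 0.00579 to 0.0755 over those settings. The third, 212758_s_at, changed by 0.51 ± 0.23 (adjusted p = 0.183) and the dim 239952_at by -0.43 ± 0.54 (adjusted p = 0.654). With all 4 averaged, ZEB1 did not pass (0.41, adjusted p = 0.182 over genes).

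RefSeq gives ZEB1 7 start windows, of which 4 hold a CANNTG and 2 hold CACCTG or CAGGTG. The window with most CACCTG or CAGGTG matches, at chr10:31318966-31319265, plus strand, holds 3, and is shown for that reason.
ZEB1: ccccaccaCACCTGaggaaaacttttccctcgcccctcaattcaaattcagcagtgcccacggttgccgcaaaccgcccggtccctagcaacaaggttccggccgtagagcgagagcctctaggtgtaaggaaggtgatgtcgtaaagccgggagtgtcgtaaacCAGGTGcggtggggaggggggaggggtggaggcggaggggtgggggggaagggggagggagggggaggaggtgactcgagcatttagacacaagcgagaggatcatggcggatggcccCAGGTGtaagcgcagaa

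ZEB2 was lower in H460R by all 5 of its probe sets, 2 of which passed. Probe set 228333_at had signals of 80.6, 78.2, 69.0 and 84.4 in H460R, against 173, 157, 164 and 163 in H460S. It fell by 1.07 on the log2 scale (SE 0.10, adjusted p = 0.000492), with tight groups that did not overlap. Probe set 235593_at had signals of 32.7, 37.1, 27.0 and 19.2 in H460R, against 71.8, 100, 90.7 and 62.1 in H460S, and fell by 1.47 on the log2 scale (SE 0.24, adjusted p = 0.00531). Both passed without any 1 array, with changes of -1.11 to -1.01 and of -1.60 to -1.29. The brightest, 203603_s_at, had signals of 107, 97.7, 117 and 60.9 in H460R, against 129, 227, 194 and 139 in H460S. Its groups did not overlap either, but its change of -0.84 ± 0.27 missed the threshold over all probe sets (adjusted p = 0.0684, and 0.00963 to 0.113 over the alternatives, of which 3 passed). The dim probe sets 233031_at and 233033_at changed by -0.61 ± 0.40 and -1.14 ± 0.51 (adjusted p = 0.356 and 0.179). The ZEB2 window at chr2:144520070-144520369, minus strand, holds 1 CANNTG, with the letters CACATG, and neither CACCTG nor CAGGTG.
ZEB2: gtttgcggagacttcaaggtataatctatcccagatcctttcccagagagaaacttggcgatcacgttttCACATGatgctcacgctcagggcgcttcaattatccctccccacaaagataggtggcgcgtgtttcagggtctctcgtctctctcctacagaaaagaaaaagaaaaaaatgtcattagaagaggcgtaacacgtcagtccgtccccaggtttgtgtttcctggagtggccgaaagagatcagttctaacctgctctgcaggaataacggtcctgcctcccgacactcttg

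TWIST1 and TWIST2 encode basic helix-loop-helix factors that bind E-boxes as dimers with E-proteins. TWIST1 had signals of 4.77, 6.16, 1.24 and 0.466 in H460R, against 1.13, 4.01, 7.76 and 1.11 in H460S (probe set 213943_at). The groups overlapped fully at the bottom of the signal range, and the change was -0.14 ± 0.67 (95% interval -1.72 to 1.44, adjusted p = 0.925). TWIST2 was readable: probe set 229404_at had signals of 175, 141, 166 and 160 in H460R, against 255, 254, 241 and 238 in H460S. It fell by 0.62 on the log2 scale (SE 0.10, adjusted p = 0.00504), with no overlap, and passed without any 1 array. The dimmer TWIST2 probe set 1554163_at had signals of 34.3, 25.5, 17.7 and 27.1 in H460R and of 41.8, 30.3, 34.1 and 19.3 in H460S, with a change of -0.24 ± 0.28 (adjusted p = 0.630). With both averaged, TWIST2 did not pass (-0.43, adjusted p = 0.0970 over genes). The TWIST2 window at chr2:238847835-238848134, plus strand, holds no CANNTG and is not printed.

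Set side by side, the cadherins and the SNAI, ZEB and TWIST factors showed these patterns. The low CDH1 signals of both groups stood beside group means above the median level, in both groups, for SNAI1, SNAI2, TWIST2 229404_at, 3 of 4 ZEB1 probe sets (not 239952_at) and 2 of 5 ZEB2 probe sets (203603_s_at and 228333_at). In H460R the rise of CDH2 came with a rise of SNAI1 and falls of ZEB2 and TWIST2. No correlation across arrays is given, since neither group holds enough arrays for one.

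**Figure D3:**
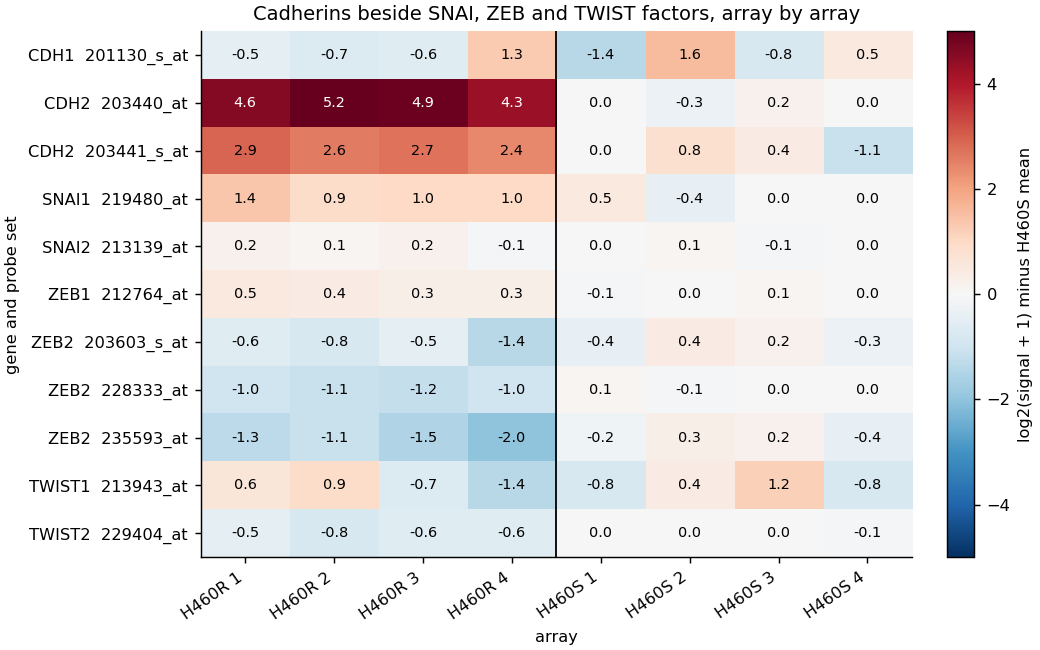
Log2(signal + 1) of CDH1, CDH2, SNAI, ZEB and TWIST probe sets that passed or were the brightest of their gene, on each array, after subtraction of the H460S mean; H460R arrays are left of the black line and H460S arrays right of it, and the numbers in the cells are these differences. CDH2 and SNAI1 are positive and ZEB2 and TWIST2 negative on all 4 H460R arrays, whereas CDH1 varies in sign within both groups.

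For the genes around the members, each gene was represented by its brightest probe set, and 19775 genes were tested together. Of these, 30.3% passed, 14.7% higher and 15.6% lower in H460R. With the adjustment over genes ZEB2 passed by 203603_s_at as well (adjusted p = 0.0488). Similar patterns were sought for the members whose brightest probe set passed with a change of at least 1, by the root mean square (RMS) difference over the 8 arrays after subtraction of the H460S mean, among 8475 genes with a mean log2 level of at least 7. Nearest to CDH2 203441_s_at were HNMT, which inactivates histamine (RMS 0.44), TRABD2A (RMS 0.44) and the antisense RNA DSCAM-AS1 (RMS 0.46). They changed by 2.92 ± 0.19, 2.42 ± 0.14 and 2.82 ± 0.13. HNMT and TRABD2A lay at 8.67 and 8.38 in H460R, against 5.75 and 5.96 in H460S, and met the level filter only through H460R. Nearest to SNAI1 were the DNA repair nuclease gene APEX2 (RMS 0.15), NOL6 (RMS 0.16) and PRXL2B (RMS 0.17), of which NOL6 changed by 1.01 ± 0.18 and PRXL2B by 1.10 ± 0.16. APEX2 lay at 8.59 ± 0.11 in H460R and 7.58 ± 0.24 in H460S (SD, n = 4 each). NOL6 (7.69 in H460R, 6.68 in H460S) and PRXL2B (7.98 and 6.88) also met the level filter only through H460R. Since the members were picked for their change, genes of similar pattern share it by selection and are no separate support.

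Among other cadherin genes, of 18 measured, 2 rose, 1 fell and 15 did not pass (median change -0.14, against -0.03 for all genes). Over all genes 30.3% passed. The gene that fell was CDH11, which encodes the type II cadherin OB-cadherin of mesenchymal cells and osteoblasts. Its log2 levels were 11.79, 11.85, 11.88 and 11.98 in H460R, against 13.68, 13.67, 13.59 and 13.63 in H460S. The groups were far apart, and the fall was 1.76 on the log2 scale (SE 0.07, adjusted p = 8.22e-06 over genes). In the fit of all probe sets, all 4 CDH11 probe sets fell, by -2.71 to -1.76. CDH8, a type II cadherin of the nervous system, lay at log2 levels of 5.45, 5.36, 5.30 and 5.52 in H460R, against 4.80, 4.56, 5.20 and 4.81 in H460S, and rose by 0.57 ± 0.14 (adjusted p = 0.0198), or by 1.53 averaged over its probe sets. With that averaging 3 of the 18 rose and 3 fell. CDH10, another type II cadherin, rose by 0.31 ± 0.08 (adjusted p = 0.0216).

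**Figure D4:**
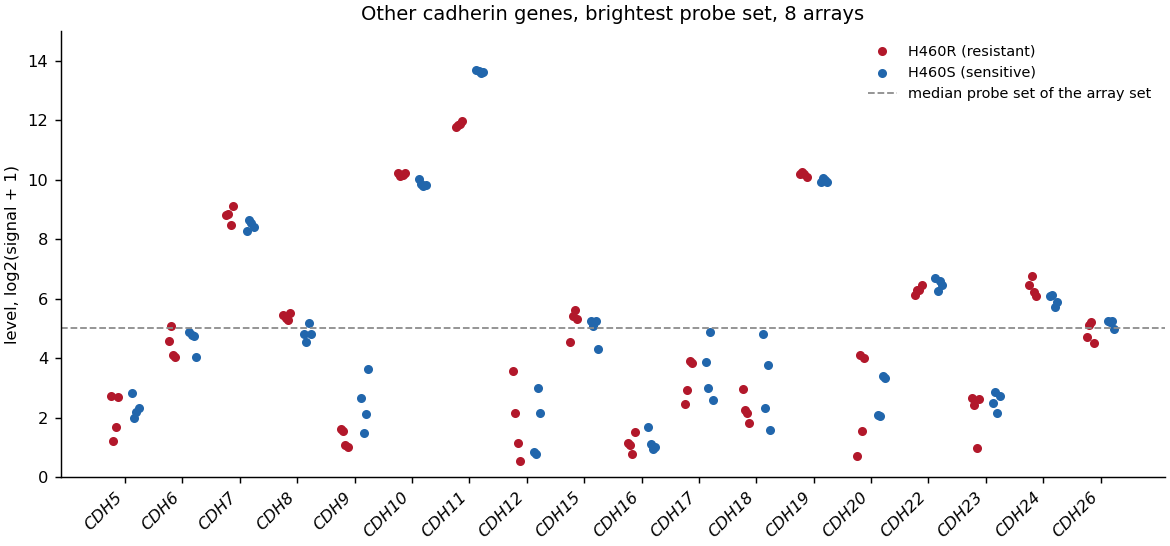
Log2(signal + 1) of 18 other cadherin genes, ordered by gene number, with H460R arrays (red) left of H460S arrays (blue) and the median probe set as a dashed line. CDH11 is lower in H460R by 1.76, and most other genes overlap between the groups.

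Catenins and proteins bound to cadherins moved in both directions, with 2 of 14 higher, 4 lower and 8 not passing (median change 0.05). Over all genes 14.7% rose and 15.6% fell. CTNND2, which encodes the neural delta-catenin, had log2 levels of 5.52, 5.54, 5.85 and 5.37 in H460R, against 7.68, 7.49, 7.97 and 7.46 in H460S. It fell by 2.08 (SE 0.15, adjusted p = 9.25e-05). The gamma-catenin gene JUP fell by 0.47 (SE 0.11, adjusted p = 0.0163), NECTIN4 fell by 0.66 (SE 0.17, adjusted p = 0.0238), and NECTIN3 rose by 0.97 ± 0.20 (adjusted p = 0.00814). Nectins are immunoglobulin-type adhesion molecules of the same junctions. Genes for the shedding and turnover of cadherins and EpCAM gave 2 rises and 1 fall among 11, where 30.3% of all genes passed. The protease genes FURIN and PSEN2 rose by 1.06 ± 0.14 and 0.95 ± 0.11 (0.61 for PSEN2 averaged over its probe sets), and ADAM17, a sheddase of EpCAM, fell by 0.88 (SE 0.07).

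Genes for cofactors of the SNAI, ZEB and TWIST proteins gave calls in both directions: 6 of 21 rose and 7 fell (median change -0.11), where 14.7% and 15.6% of all genes did. With the probe sets of each gene averaged, 5 rose and 3 fell. TCF3, which encodes an E-protein partner of TWIST factors, had log2 levels of 10.19, 10.06, 10.30 and 10.44 in H460R, against 8.79, 8.83, 9.14 and 8.93 in H460S, a rise of 1.32 ± 0.12 (adjusted p = 0.000211). Averaged over all its probe sets the change was 0.46. The histone deacetylase gene HDAC2 rose by 0.86 ± 0.13. AJUBA, whose LIM protein binds the SNAG domain of Snail, fell by 1.43 (SE 0.09), and the lysyl oxidase-like gene LOXL3 fell by 1.15 (SE 0.10). Among 11 regulators of the stability of the Snail protein, 5 fell and 0 rose (median change -0.34). Of those that did not pass, 2 had a positive change with an unadjusted limma p below 0.05, CTDSPL (0.33 ± 0.11) and the Snail kinase gene GSK3B (0.26 ± 0.10). COPS2 (-0.19 ± 0.07) and PRKD1 (-0.34 ± 0.13) had a negative change at the same cutoff. These genes were chosen after their values were seen. CTDSP1 and CTDSP2, small phosphatases that act on Snail, fell by 0.97 (SE 0.09) and by 0.75 (SE 0.08), and the F-box genes FBXL5 and FBXL14, which target it for degradation, fell by 0.56 (SE 0.08) and by 0.55 (SE 0.12). Averaged over probe sets, the change was -1.56 for FBXL14 and -0.47 for CTDSP2. The list was not split by the way its members act on Snail, so its counts give no direction for the stability of the protein.

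Other transcription factors linked to EMT gave 1 rise and 5 falls among 11 (median change -0.49), where 14.7% of all genes rose and 15.6% fell. Of the 11, 5 lay below the median level. Among these was GSC, counted as a fall at log2 levels of 1.19 in H460R and 1.72 in H460S, near the bottom of the signal range. SOX9 fell by 1.42 (SE 0.07), TBXT, the gene of brachyury, by 1.02 (SE 0.09) and TCF4, another E-protein gene, by 0.78 (SE 0.09), and SOX4 rose by 0.72 ± 0.08, or by 0.48 averaged over its probe sets. Among 13 mesenchymal genes, 4 fell, 0 rose and 9 did not pass by limma (median change -0.36), with 0 further rises at an unadjusted p below 0.05. Over all genes 30.3% passed in either direction. The vimentin gene VIM did not pass (-0.26 ± 0.15, adjusted p = 0.254 by limma). AXL, a receptor tyrosine kinase, lay at 8.20, 8.26, 8.57 and 8.16 in H460R, against 10.33, 10.24, 10.30 and 10.29 in H460S, and fell by 1.99 (SE 0.10, adjusted p = 2.30e-05). The fibronectin gene FN1 lay at 12.77, 12.81, 12.77 and 13.02 in H460R, against 14.11, 13.93, 13.97 and 13.88 in H460S, and fell by 1.13 (SE 0.09, adjusted p = 0.000139). LOX, a lysyl oxidase that was below the median level in both groups, fell by 1.19 (SE 0.29), and the smooth muscle actin gene ACTA2 fell by 0.91 (SE 0.11). The call ended when all ACTA2 probe sets were averaged (-0.23, adjusted p = 0.633), and the averaged change of LOX was -0.73. With probe sets averaged, 3 of the 13 mesenchymal genes fell. These falls stood beside the rise of CDH2, which belongs to the same textbook programme, and a link between them was not tested.

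Of 22 epithelial adhesion and polarity genes, 2 rose, 2 fell and 18 did not pass (median change -0.11), where 30.3% of all genes passed, and 12 lay below the median level. The claudin genes CLDN7 and CLDN3 fell by 1.29 (SE 0.08) and by 1.03 (SE 0.22, with an averaged change of -1.66 for CLDN3). CLDN3 was below the median level in both groups, at log2 levels of 3.71 in H460R and 4.74 in H460S. MAL2, a transport protein of polarised cells, rose by 0.86 ± 0.24 and the mucin gene MUC1 by 0.42 ± 0.08. Of 13 epithelial transcription and splicing factors, 0 rose, 1 fell and 12 did not pass (median change 0.35), with 9 below the median level. The splicing factor gene ESRP1 and KLF5 had positive changes with an unadjusted limma p below 0.05 (1.42 ± 0.48 and 0.48 ± 0.15, adjusted p = 0.0613 and 0.0506), chosen after their values were seen. Averaged over probe sets, ESRP1 changed by 0.60 (adjusted p = 0.212) and KLF5 rose by 0.65 (adjusted p = 0.00711). The gene that fell was KLF4, by 0.47 (SE 0.11, adjusted p = 0.0154).

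**Figure D5:**
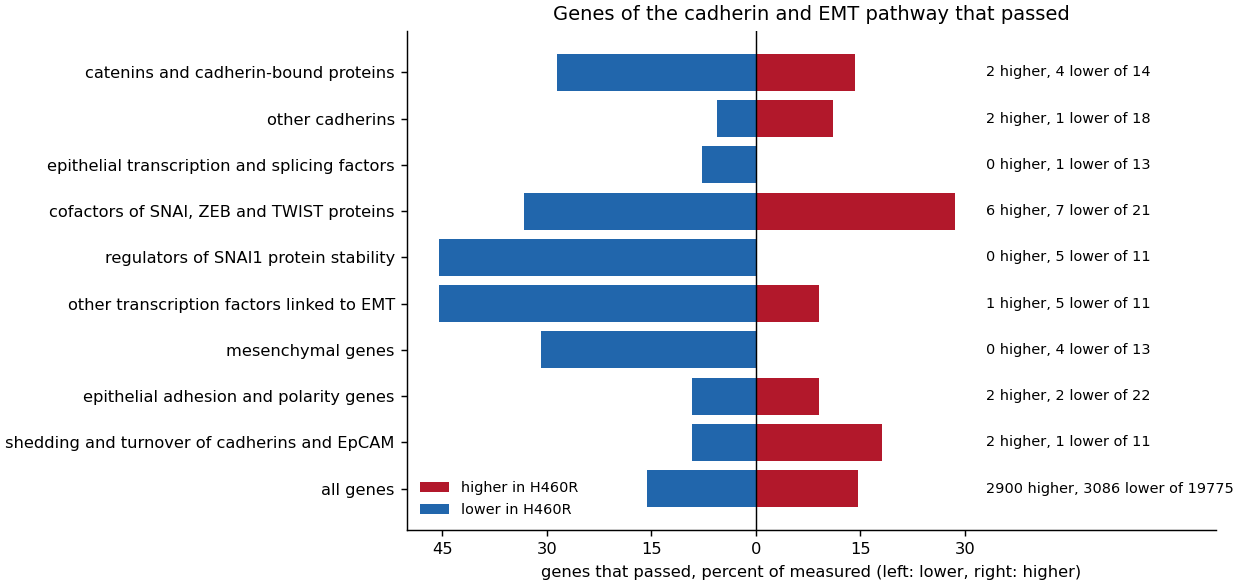
Share of measured genes that passed in each list of the cadherin and EMT pathway, lower in H460R to the left and higher to the right, with the counts at the right edge and all 19775 genes in the last row. The lists of mesenchymal genes and of regulators of SNAI1 protein stability have 4 of 13 and 5 of 11 genes lower and 0 higher, where all genes give 15.6% lower and 14.7% higher.

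Genes beside the members in the order of the RefSeq gene table were also read, by the 5 nearest measured genes on each side. Over all genes 30.3% passed, 14.7% higher and 15.6% lower. Among the 10 nearest measured genes of CDH2, 0 rose by limma (0 at an unadjusted p below 0.05 with a positive change) and 1 fell (median change -0.22), and the adjacent genes did not pass, DSC3 (-0.29 ± 0.18, adjusted p = 0.276) and CHST9 (0.08 ± 0.50, adjusted p = 0.931). The one that fell was DSC2, which encodes the desmosomal cadherin desmocollin (-1.62 ± 0.16, adjusted p = 0.000312), named after its value was seen. The neighbours of ZEB2 gave 0 rises by limma (0 with a positive change at an unadjusted p below 0.05) and 4 falls (median change -0.35). Among the falls was the adjacent QTMAN (-0.55 ± 0.10, adjusted p = 0.00622 by limma). The neighbours of TWIST2 gave 1 rise and 4 falls (median change -0.59), with the adjacent histone deacetylase gene HDAC4 lower by -0.92 ± 0.11 (adjusted p = 0.000825). SNAI1 had 1 rise, that of the adjacent RNF114 (0.30 ± 0.09, adjusted p = 0.0405), and 3 falls, among them the other adjacent gene CEBPB (-0.47 ± 0.08, adjusted p = 0.00313). Beside TWIST1, whose own level was not readable, HDAC9 rose by 1.70 ± 0.37 (adjusted p = 0.0115). The neighbours of ZEB1 gave 2 rises and 4 falls, and those of CDH1 and of CDH3 2 rises and 2 falls each. EPCAM, SNAI2 and TWIST1 had 1 rise and 1 fall each among theirs. TANGO6, adjacent to CDH1, and ZFP90, adjacent to CDH3, fell (-0.39 ± 0.10 and -0.61 ± 0.10, adjusted p = 0.0222 and 0.00267 by limma).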

How the data were processed

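The authors deposited 1 linear intensity per array for each of 54675 probe sets, on 8 single-channel biotin arrays. RMA is named, per the submitters' processing notes, its version not given in the sources used here, but the values are not log2-like, and their mean after trimming 2% at each end is 200 on every array, a form that MAS 5-type signals have; the step that made them is not settled. Such scaling hides changes in total RNA. After removal of 62 control probe sets, log2(signal + 1) was compared with limma 3.58.1 in R 4.3.3 (lmFit, eBayes, Benjamini-Hochberg adjustment over all probe sets or all genes). The platform annotation gave 41091 probe sets 1 symbol, 1801 several and 11721 none; only those with 1 were named. Pathway genes without such a probe set were not analysed here. Precision is limited by the 4 arrays in each group. The members and lists were chosen with earlier results of these data known. Each list contributed up to 4 named genes, those with the largest changes among genes that passed. Likeness, neighbours and pairs followed fixed rules given beside them. The fit was tested on simulated data. Alternatives were a replicate block, a trended robust prior, array weights, quantile normalization, median centring, a pseudocount of 16, a filter on dim probe sets, other choices of probe set and leaving out each array. Sequences came from RefSeq tables of GRCh38.p14.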

Additional observations from a re-analysis of the deposited data

Results flagged for a closer look

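In 40 groups of 4 arrays, 1 for each member probe set and group, 2 values lay apart from the other 3 of their group by Dixon's ratio of gap to range at its 95% critical value. Chance marks about 1 in 20 such groups. Both values were on H460R array 4. CDH1 201130_s_at had a log2 level of 3.69 there, a signal of 11.9, against 1.78 to 1.89 on the other H460R arrays (ratio 0.943). The other CDH1 probe set, 201131_s_at, had its lowest H460R signal on the same array, 0.392. SNAI2 213139_at had a log2 level of 7.24 there, a signal of 150, against 7.47 to 7.50 (ratio 0.867). Without this array CDH1 201130_s_at changed by -0.61 and SNAI2 by 0.15, and neither passed.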

How the results depend on the processing

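Calls for CDH2, SNAI1 and ZEB2 (228333_at and 235593_at) passed under every alternative run on them. The filter on dim probe sets removed both CDH2 probe sets, which lay below the median level on average, so CDH2 was not tested under it. The labels do not say whether replicate numbers pair the arrays. Deviations of same-numbered arrays correlated at -0.03 to 0.01. The same-numbered H460S array was the best match for H460R arrays 2 and 3 but not for 1 and 4, which does not settle the pairing. With a replicate block, 2190 probe sets were higher and 2872 lower in H460R, against 4984 and 5653 without it, and ZEB1 212764_at (adjusted p = 0.119) and TWIST2 229404_at (adjusted p = 0.0525) no longer passed by limma. Probe sets or pairs near 0 changed sign when 1 array was left out: CDH1 201130_s_at ranged from -0.61 to 0.40, TWIST1 from -0.49 to 0.27, ZEB1 239952_at from -0.71 to 0.076, CDH1 minus CDH3 from -0.38 to 0.75 and CDH1 minus EPCAM from -0.14 to 0.92. With a pseudocount of 16, CDH1 minus CDH3 was -0.029. With each gene averaged over its probe sets, lower counts were 3 of 18 other cadherins, 3 of 21 cofactors, 4 of 22 epithelial adhesion genes and 3 of 11 shedding genes, and 1 epithelial factor was higher. The causes were not tested. Median centring moved the median of all probe sets by 0.07 and quantile normalization by 0.05. Signals below the median level limit what can be said of CDH1, CDH3, EPCAM and TWIST1.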
